A study of Drosophila melanogaster with 12 samples.

Results

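The glutathione S-transferase (GST) genes of Drosophila were followed by class in the heads of flies that express human Aβ42 in their neurons. The members were the genes whose symbol is Gst followed by the letter of a cytosolic class (D, E, O, S, T or Z) and a number. These were 35 of the 14162 genes in the deposited table, namely 11 Delta, 14 Epsilon, 3 Omega, 1 Sigma, 4 Theta and 2 Zeta genes. Of these, 33 passed the filter on low counts and were tested among 10577 genes, and GstD4 and GstD7 did not.

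GSTs join the tripeptide glutathione to electrophiles such as insecticides, plant toxins and the aldehydes formed when membrane lipids are oxidized, and several also reduce organic peroxides. The Delta and Epsilon classes expanded in insects, where tandem copies are known for detoxification, and GstD1 is widely used as a reporter of oxidative stress through the transcription factor CncC and its inhibitor Keap1. The Sigma, Omega, Theta and Zeta classes have relatives in vertebrates, and Zeta enzymes act in tyrosine breakdown.

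All 12 samples were heads of flies kept at 29 °C that carried the pan-neuronal driver nSyb-Gal4, with 20 heads pooled per sample and 3 samples per group. Control flies (nSyb>w1118) carried no UAS transgene, AD flies (nSyb>Abeta42) expressed the Arctic form of Aβ42 with a secretion signal, AD + Yip7 flies (nSyb>Abeta42+yip7) also expressed the serine protease Yip7, and AD + Yip7∆S flies (nSyb>Abeta42+yip7_S) expressed Yip7 without its putative transmembrane region. The labels give an age of 10 days, except for Control replicate 3, which is given as 2 weeks old. They name the tissue as head although their descriptions speak of dissected brains, and markers of photoreceptors (38896 to 56491 CPM in sum) and of head fat body (76154 to 126537 CPM) were high in every sample. Each group is 1 cross, so the transgenes and the background of the lines cannot be told apart.

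The samples held 38064884 to 41737332 counts. Levels are given as CPM, the count per 1000000 counts of the sample after scaling by the trimmed mean of M values, with mean ± SD and n = 3, and a gene was called at a Benjamini-Hochberg adjusted p under 0.05 in edgeR's quasi-likelihood test across all tested genes. Values after ± beside a log2 fold change are standard errors. Reads of the gene yip7 overlapped between AD (94.2 to 159 CPM) and AD + Yip7 (123 to 173 CPM) and were lower with Yip7∆S (73.8 to 88.1 CPM), so this gene did not check those labels. Markers of the digestive tract, a list of 20 genes that includes yip7, summed to 38.7 to 150 CPM for the Control samples, 1082 to 1606 CPM for AD, 282 to 809 CPM for AD + Yip7 and 186 to 501 CPM for AD + Yip7∆S. Of these genes 12 were tested, and edgeR called all 12 as raised in AD relative to Control, where 14.4% of all tested genes were called higher. Jon65Aiv, Jon99Ci, Jon99Cii, Jon99Ciii, betaTry and epsilonTry lay under the level of the count filter in every Control sample. The Control samples of alphaTry had 0.298, 0 and 0.024 CPM, beside a filter level of 0.2439 CPM. All of these genes were tested through the groups where they were high, so their calls, here and below, are partly set by the filter. Of the untested markers, gammaTry, deltaTry and Jon25Bi were above Control in each AD sample, and Jon25Bii, Jon99Fi, Jon99Fii and LManVI overlapped. The marker thetaTry was at 0 in 11 of 12 samples. The part of the digestive tract markers in the results for GST genes was not tested.

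The GST genes sat largely in 2 tandem clusters (build dm6, Ensembl annotation). All 11 Delta genes lay within 20.8 kb of chromosome 3R, positions 12364776 to 12385624. GstE10 and GstE1 to GstE9 lay side by side within 13.2 kb of chromosome 2R, starting at position 18396638, while GstE11, GstE12, GstE13 and GstE14 lay elsewhere on 2R. The 3 Omega genes were on 3L, GstZ1 and GstZ2 next to each other on 3R, GstS1, GstT1 and GstT2 on 2R, and GstT3 and GstT4 on X. The Delta and Epsilon copies resemble each other in sequence, and how reads that fit several copies were counted is not given in the sources used here, so small values of one copy beside a much higher one are uncertain.

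Few genes held most of the GST reads. Per kb of exon, GstD1 was the highest at 382 CPM per kb over all samples, followed by GstE12 at 243 and GstE9 at 132. The next, GstE6, GstE3 and GstT4, lay between 61.9 and 71.8 CPM per kb, and GstD7 was the lowest at 0.0754. GstE12 and GstD1 together took 40.4% to 47.4% of the summed GST level of a sample. GstE12, the leading Epsilon gene, had 360 ± 30.3 CPM in Control and 338 ± 44.3 in AD, beside 333 ± 7.11 with Yip7 and 327 ± 28.6 with Yip7∆S. Its samples overlapped between all groups, and the difference of AD from Control was −0.09 ± 0.11 (log2, edgeR adjusted p = 0.58).

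**Figure D1:**
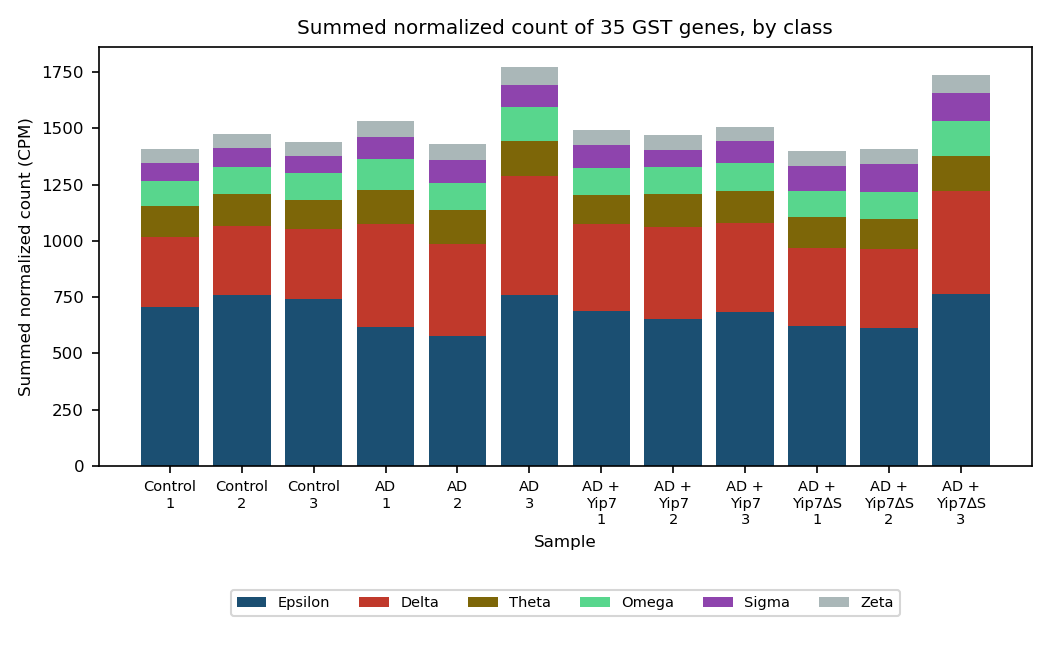
Stacked bars of the summed normalized count (CPM, vertical axis from 0) of the 35 GST genes by class in each of the 12 samples. The Delta segment was 308 to 312 CPM in Control and 406 to 532 CPM in AD. Of this segment, GstD1 alone made up 243 to 247 CPM in Control and 341 to 453 CPM in AD. AD replicate 3 and AD + Yip7∆S replicate 3 had the tallest bars (1773 and 1735 CPM).

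Summed over the 35 genes, Control samples had 1440 ± 33.5 CPM and AD samples 1579 ± 176, AD + Yip7 samples 1490 ± 16.8 and AD + Yip7∆S samples 1515 ± 190, and the samples of all groups overlapped. The class sums differed in direction. The Delta sum went from 310 ± 1.62 CPM for Control to 465 ± 63.4 for AD, 397 ± 9.08 for AD + Yip7 and 386 ± 61.9 for AD + Yip7∆S. In this sum every sample that expressed Aβ42 lay above every Control sample. GstD1 made up most of the Delta sum, with 245 ± 1.78 CPM in Control and 390 ± 57.5 in AD. The sum therefore does not show a rise of the class as a whole. The Epsilon sum was 735 CPM in Control against 650 in AD, and AD replicate 3 lay at 757 CPM, within the Control range.

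A pair of samples stood above their group for most GST genes. AD replicate 3 had the highest value of its group in 24 of 33 tested GST genes and AD + Yip7∆S replicate 3 in 31 of 33, where these samples were the highest for 40.8% of all tested genes. The median log2 difference of the GST genes from the mean of the other samples of the group was 0.26 for the first and 0.37 for the second, against 0.02 and 0.00 over all genes. Results are therefore given below also without both samples, an alternative that was chosen after seeing the data.

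**Figure D2:**
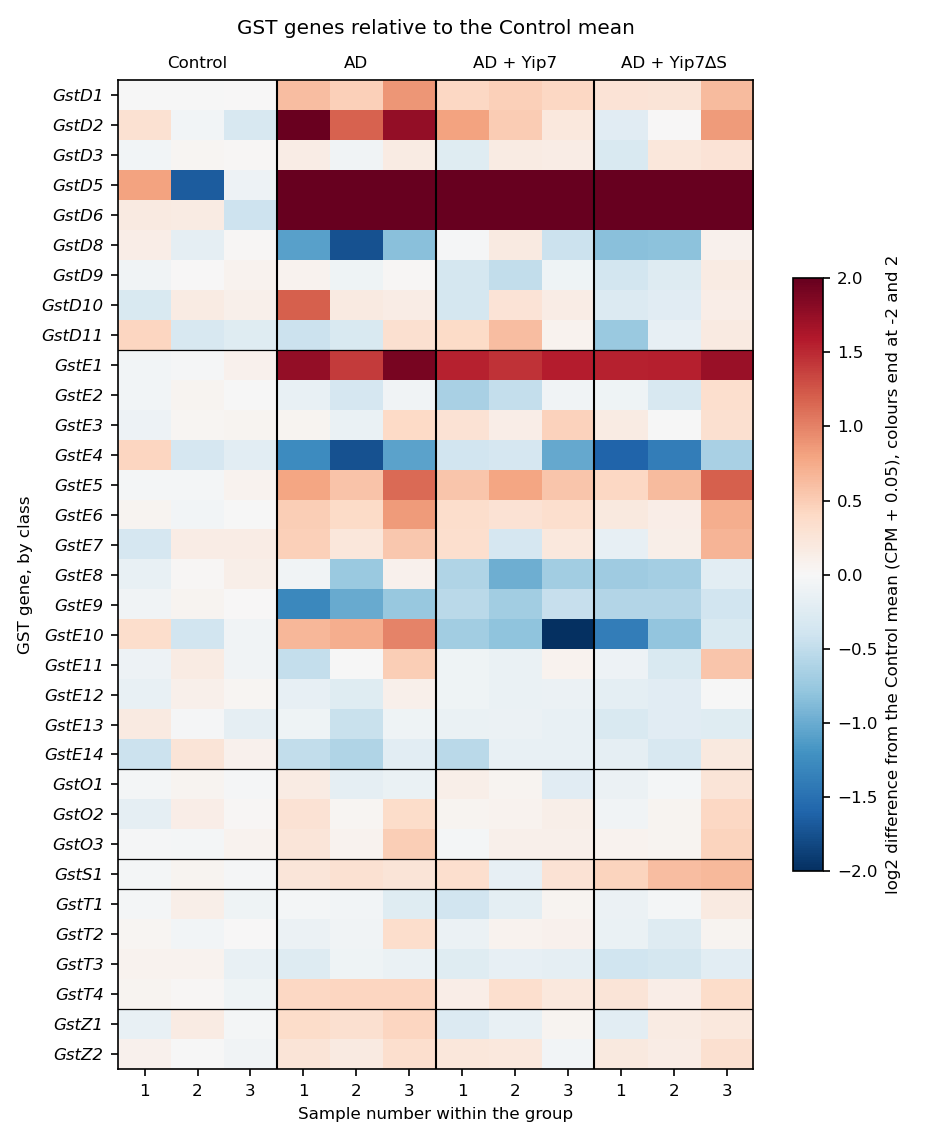
Heat map of the 33 tested GST genes (rows, by class) in the 12 samples (columns), coloured by the log2 difference from the Control mean after adding 0.05 CPM, with colours ending at −2 and 2. GstD5, GstD6 and GstE1 were high in all 9 samples with Aβ42, GstE9 was low in all 9, and the column of AD + Yip7∆S replicate 3 was higher than the other columns of its group.

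The comparison of AD with Control asks how neuronal Aβ42 changes the head transcriptome. In it, 8 GST genes rose and 3 fell among 33 tested. Over all genes, 26% were called, 14.4% higher and 11.6% lower. The risers were GstD1, GstD2, GstD5, GstD6, GstE1, GstE5, GstE6 and GstT4, and GstD8, GstE4 and GstE9 fell. The median log2 fold change was −0.02 over the 14 Epsilon genes and 0.12 over all 33, beside −0.01 over all genes tested. Over the 9 tested Delta genes it was 0.60, the value of GstD10, which was not called (edgeR adjusted p = 0.12). These 9 include GstD5 and GstD6, tested through the groups where they were high, and leave out GstD4 and GstD7. The Delta median therefore does not show a rise of the class as a whole. The median of the 33 was 0.05 without AD replicate 3 and 0.24 without AD replicate 2. Without AD replicate 3 and AD + Yip7∆S replicate 3, the same 11 genes were called, and without the 2-week-old Control replicate 3 they were also the same 11.

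Among the Delta genes, GstD1 gave the largest change in CPM. It had 243, 245 and 247 CPM in the Control samples, 375, 341 and 453 in AD, 327, 340 and 327 in AD + Yip7, and 296, 292 and 379 in AD + Yip7∆S. The Control samples lay within 4 CPM of each other, well below every sample with Aβ42. GstD1 rose by 0.67 ± 0.12 in AD relative to Control (1.59-fold, edgeR adjusted p = 0.0018).

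GstD2 had 3.65, 2.85 and 2.35 CPM in Control and 11.8, 6.75 and 10.2 in AD, with no overlap, and rose by 1.69 ± 0.29 (3.24-fold, edgeR adjusted p = 0.0011). GstD5 went from 20, 2 and 10 counts in the Control samples to 117, 73 and 113 in AD, a rise of 3.23 ± 0.49 (edgeR adjusted p = 0.00049). The ratio of the summed counts of GstD5 was 9.55, with an exact 95% interval of 6.62 to 14.2 that covers counting error only. GstD6 was nearly silent in Control, with 1, 1 and 0 counts, and had 19, 29 and 30 counts in AD. Its ratio of summed counts, 39.3, had an exact 95% interval of 10.5 to 330, and the log2 fold change was 5.05 ± 0.62 (edgeR adjusted p = 0.0001). GstD6 reached the level that the filter asks for in 8 samples with Aβ42 and 0 Control samples, and GstD5 in 9 with Aβ42 and 1 Control sample, so both were tested through the groups where they were high.

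GstD8, in the same cluster, went the other way. It had 3.78, 3.02 and 3.50 CPM in Control and 1.58, 0.989 and 1.90 in AD, and fell by 1.20 ± 0.30 on the log2 scale (edgeR adjusted p = 0.01). GstD3, GstD9, GstD10 and GstD11 were not called, with log2 fold changes from −0.10 to 0.60. GstD4 had 0 to 12 counts per sample over the 12 samples, and GstD7 had 0 counts in all 3 Control samples and 0, 6 and 5 in AD. Neither was tested.

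**Figure D3:**
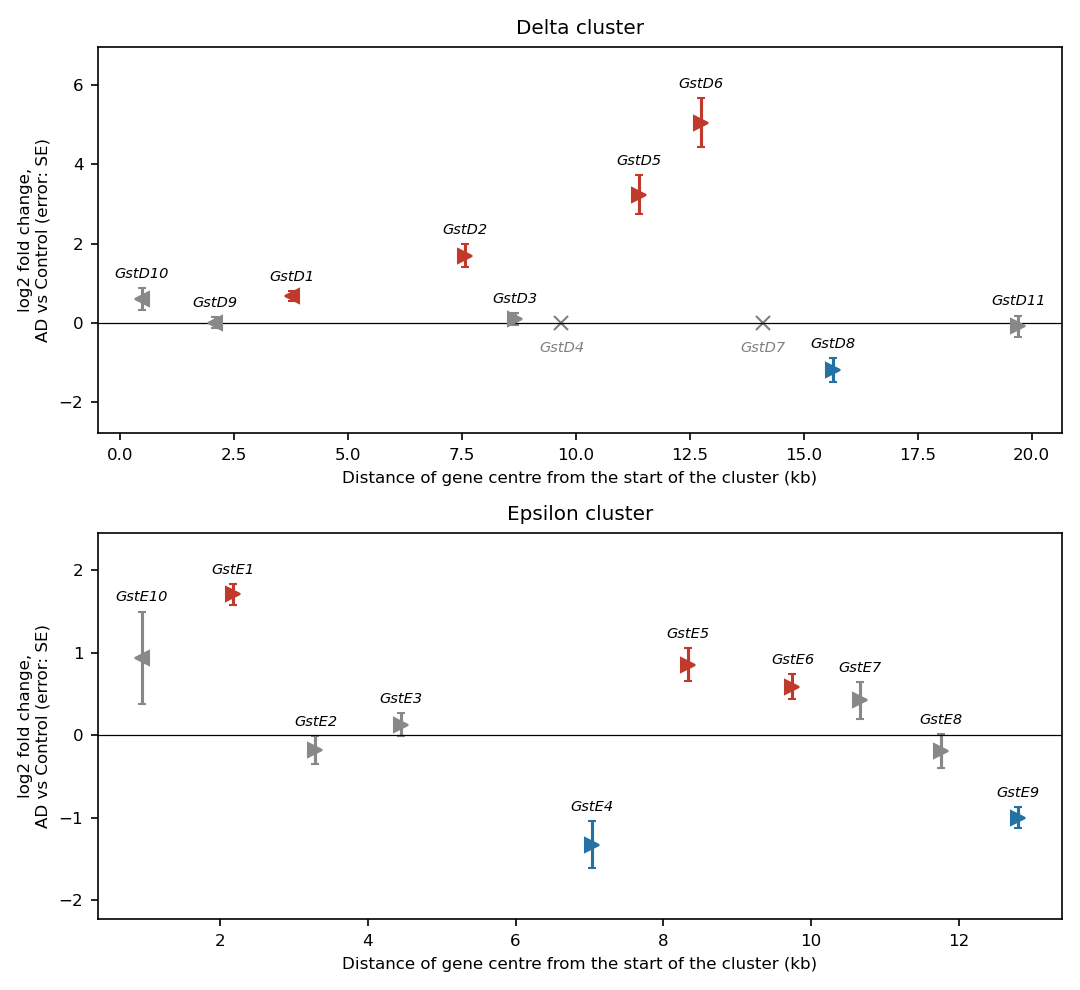
Log2 fold change of AD against Control with its SE (vertical axis) by the distance of the gene's centre from the start of the Delta cluster (11 genes) and the Epsilon cluster (10 genes) in kb, with red for called higher, blue for called lower, grey for not called and crosses for not tested, and arrowheads for the strand. Adjacent genes took the same direction in some places, as GstD5 (3.23) and GstD6 (5.05), and opposite directions in others, as GstE4 (−1.33) and GstE5 (0.85).

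Among the Epsilon genes, GstE1, whose enzyme is known to conjugate the lipid aldehyde 4-hydroxynonenal, had the smallest adjusted p of all GST genes. Its Control samples had 9.22, 9.50 and 10.2 CPM, and its AD samples 32.7, 25.5 and 36.0. GstE1 rose by 1.71 ± 0.12 (3.26-fold, edgeR adjusted p = 1.2e-06). It shares 20 exon bases with GstE10 on the opposite strand, and the level of GstE10 was 0.391 CPM in AD. GstE5 rose by 0.85 ± 0.20 (edgeR adjusted p = 0.0066), from 4.65 ± 0.214 to 8.40 ± 1.66 CPM, and GstE6 by 0.59 ± 0.15 (edgeR adjusted p = 0.013), from 42.6 ± 1.56 to 64.0 ± 11.1 CPM. The call for GstE6 was lost without AD replicate 3 (0.45, edgeR adjusted p = 0.057).

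GstE4 and GstE9 fell. GstE9 had 138, 151 and 145 CPM in Control and 59.4, 71.8 and 85.6 in AD, and fell by 1.00 ± 0.12 on the log2 scale (edgeR adjusted p = 0.00011). Its exons share 40 bases with the immune gene imd. GstE4 had 83.8, 49.3 and 53.6 CPM in Control and 26.1, 18.5 and 29.7 in AD, a fall without overlap although Control replicate 1 stood well above the other 2 Control samples (−1.33 ± 0.28, edgeR adjusted p = 0.0045). The other 9 Epsilon genes were not called, with log2 fold changes from −0.42 (GstE14, known for its role in ecdysteroid synthesis) to 0.94 (GstE10).

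Outside the 2 insect classes, 1 of 10 genes was called. GstT4, a Theta gene, had 66.4, 65.2 and 60.6 CPM in Control and 85.7, 85.9 and 86.7 in AD, and rose by 0.43 ± 0.09 (edgeR adjusted p = 0.0036). The Sigma gene GstS1, an abundant GST of fly muscle, differed by 0.27 ± 0.12 (edgeR adjusted p = 0.11), from 80.7 ± 2.83 to 97.4 ± 2.26 CPM. GstO2, the Omega gene with the highest CPM, went from 59.8 ± 6.40 to 70.5 ± 8.29 CPM (0.24 ± 0.13, edgeR adjusted p = 0.21). GstZ2, the higher of both Zeta genes, went from 51.9 ± 2.91 to 62.4 ± 3.43 CPM (0.27 ± 0.10, edgeR adjusted p = 0.065), and GstZ1 differed by 0.37 ± 0.13 (edgeR adjusted p = 0.054).

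**Figure D4:**
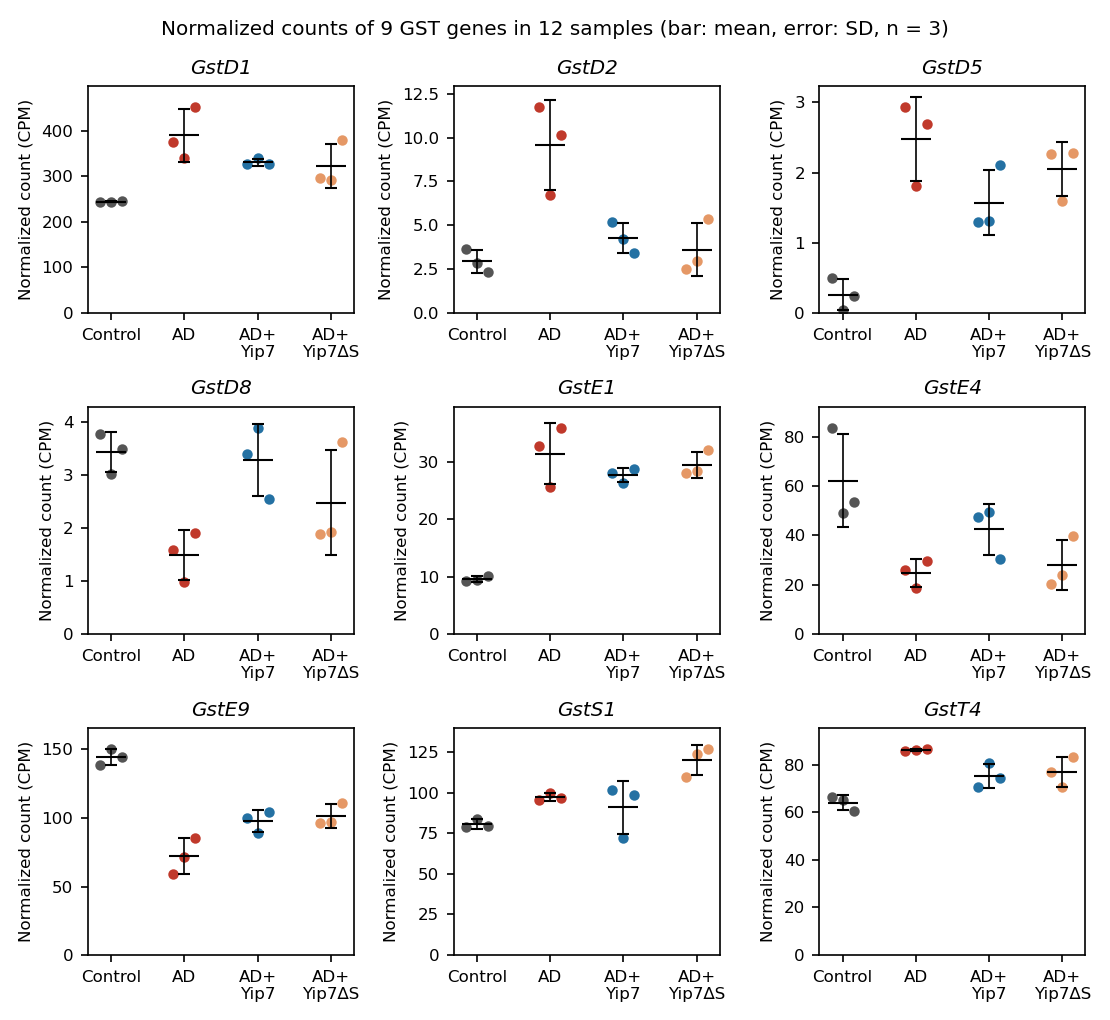
Normalized counts (CPM, vertical axes from 0) of 9 GST genes in the 12 samples, with points for samples, bars for the mean and error bars for the SD (n = 3). GstD1, GstD2, GstD5, GstE1 and GstT4 were higher and GstD8, GstE4 and GstE9 lower in every AD sample than in every Control sample.

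Other marker lists moved in this comparison too. Among all tested genes, 11.6% were called lower in AD, and 4064 of 10577 had an unadjusted p under 0.05. Glia markers were lower in AD for 4 of 5 genes (794 to 854 CPM in sum in Control, 531 to 631 in AD), neuron markers for 2 of 5 (2676 to 2839 against 1665 to 2221), hemocyte markers for 4 of 5 (503 to 873 against 387 to 456) and head fat body markers for 4 of 8 (97478 to 106955 against 76154 to 80551). In photoreceptors 1 of 5 was lower, and in muscle 0 of 5 was called with 2 at an unadjusted p under 0.05. No marker was at 0 in all samples. In these bulk samples, fewer cells of a type and less RNA per cell cannot be told apart, and the part of the cell types in the GST results was not tested.

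The comparison of AD + Yip7 with AD asks what coexpressed Yip7 changes in AD heads. No GST gene was called among 33 tested by edgeR, where 1.81% of all genes were. An unadjusted p under 0.05 was found for 10 GST genes, and for 1387 of all 10577 genes. DESeq2 called 5 in the fit of all 12 samples (3.72% over all genes), with GstD2, GstE10 and GstZ1 lower and GstD8 and GstE9 higher, and 4 with 6 samples (GstD2, GstD8, GstE4 and GstZ1, where 4.16% of all genes were called). The median log2 fold change of the GST genes was −0.16, and 25 of 33 were below 0, beside a median of 0.02 over all genes. Without AD replicate 3 these medians were −0.095 and 0.00. Head fat body markers were higher than in AD for 4 of 8 genes (109457 to 126537 CPM in sum) and digestive tract markers lower for 3 of 12, and their part in these values was not tested.

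The values of GstD2 in AD + Yip7, 5.17, 4.23 and 3.43 CPM, all lay below the AD samples (log2 fold change −1.16 ± 0.29, edgeR adjusted p = 0.063). GstD8 had 3.39, 3.90 and 2.55 CPM, above every AD sample and overlapping with Control (1.13 ± 0.30, edgeR adjusted p = 0.083). GstE9 ran from 89.3 to 105 CPM, between the AD and the Control samples (0.44 ± 0.12, edgeR adjusted p = 0.11). GstE4 lay at 47.5, 49.5 and 30.5 CPM, above AD in each sample (0.78 ± 0.28, edgeR adjusted p = 0.23). GstZ1 had 8.32, 9.10 and 10.5 CPM against 13.0, 12.6 and 13.6 in AD (−0.49 ± 0.13, edgeR adjusted p = 0.091).

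GstE10 had 4, 4 and 0 counts in AD + Yip7 and 14, 15 and 19 in AD (−2.51 ± 0.66, edgeR adjusted p = 0.084). It reached the level of the filter in the 3 AD samples and 1 Control sample alone, so it was tested through the group where it was high. GstE1 had 28.0, 26.4 and 28.7 CPM, overlapping with AD (−0.18 ± 0.12, edgeR adjusted p = 0.59). GstD1 was below AD in each sample, with a difference of −0.23 ± 0.12 (edgeR adjusted p = 0.46). Without AD replicate 3 and AD + Yip7∆S replicate 3, 2 genes were called, GstD8 and GstE9, both higher.

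In AD + Yip7∆S against AD, GstD2 was the 1 GST gene called of 33, and it fell. Over all genes, 1.85% were called and 0.983% were called lower. Digestive tract markers were lower than in AD for 8 of 12 genes and muscle markers for 1 of 5 (1722 to 2090 CPM in sum against 2431 to 2607). Head fat body markers were higher for 1 of 8 and glia markers for 1 of 5. Of 5 hemocyte markers 0 were called, with 5 at an unadjusted p under 0.05 (1600 of all 10577 genes). Their log2 fold changes were 0.40 to 0.89, and their sums 597 to 658 CPM against 387 to 456 in AD. The part of these markers in the GST results was not tested. GstD2 had 2.51, 2.96 and 5.34 CPM, each below the AD samples, and fell by 1.41 ± 0.29 on the log2 scale (edgeR adjusted p = 0.03). The call was lost in a fit of the 6 samples (−1.41, edgeR adjusted p = 0.074) and without AD replicate 1 (0.09), AD replicate 3 (0.087), AD + Yip7∆S replicate 1 (0.11) or replicate 2 (0.077), with log2 fold changes from −1.20 to −1.37. GstE9, at 96.2, 96.8 and 111 CPM, was above every AD sample (0.49 ± 0.12, edgeR adjusted p = 0.069), and was called higher by DESeq2 with 12 samples (4.14% over all genes), without AD replicate 3, where it was the 1 call in place of GstD2, and, beside GstD2, without AD replicate 3 and AD + Yip7∆S replicate 3 together. The median log2 fold change of the GST genes was −0.09, went to −0.24 without AD + Yip7∆S replicate 3 and to 0.00 without AD replicate 3.

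**Figure D5:**
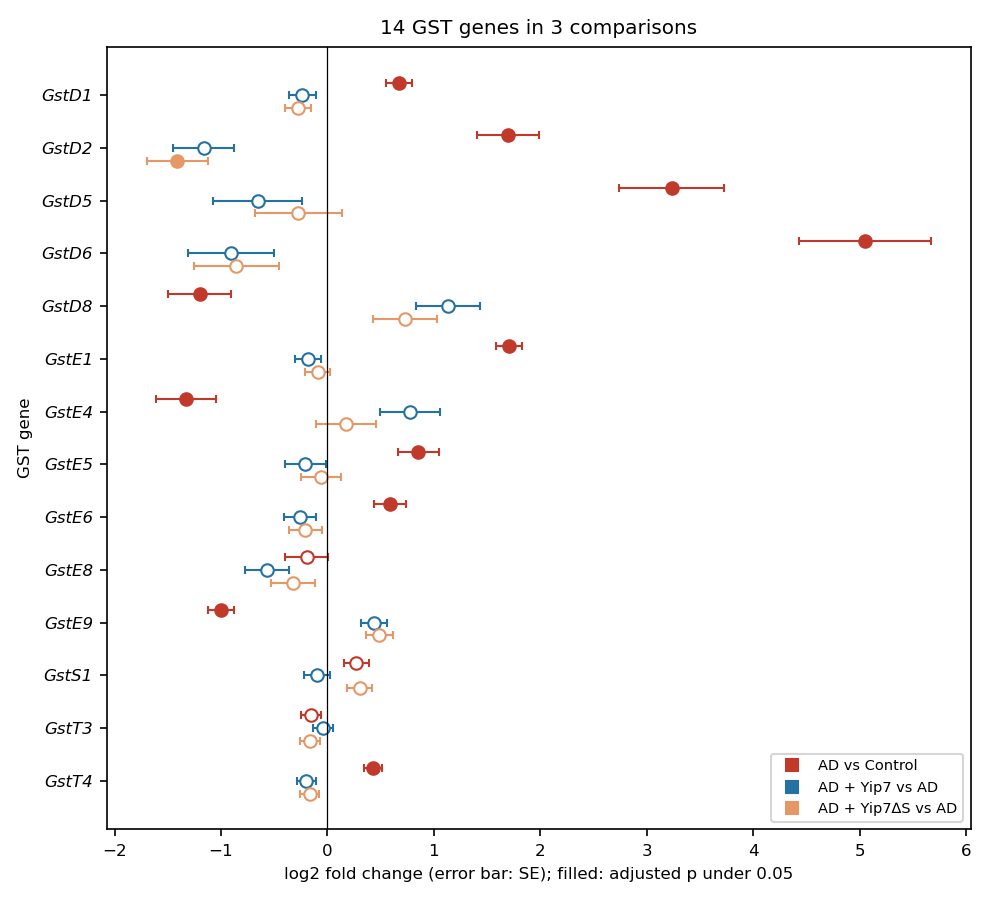
Log2 fold change with its SE (horizontal axis) of the 14 GST genes called in at least 1 of the 6 comparisons, for AD against Control (red), AD + Yip7 against AD (blue) and AD + Yip7∆S against AD (orange), filled where the edgeR adjusted p was under 0.05. The AD samples enter all 3 comparisons. The only filled point against AD is GstD2 in AD + Yip7∆S (−1.41).

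The Yip7 form with the transmembrane region and the one without it were compared directly. By edgeR 0 of 33 GST genes were called, with 2 at an unadjusted p under 0.05, and DESeq2 called 0 in the fits of 12 and of 6 samples. Over all genes, edgeR called 0.0662%, with 1086 of 10577 at an unadjusted p under 0.05, and DESeq2 called 1.22% and 1.12%. The log2 differences of AD + Yip7 from AD + Yip7∆S ran from −0.55 to 0.60. The smallest adjusted value by edgeR was that of GstS1, which had 102, 72.1 and 98.8 CPM in AD + Yip7 and 110, 124 and 127 in AD + Yip7∆S, without overlap (−0.40 ± 0.12, edgeR adjusted p = 0.30). For GstD1 the difference was 0.04 ± 0.12, and for GstD2, 0.25 ± 0.29. The median over the GST genes was −0.05 and became 0.08 without AD + Yip7∆S replicate 3.

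Both groups with a Yip7 form were also compared with Control. These comparisons share the Control samples with each other and with that of AD, so each is given by its own values. AD + Yip7 had 5 GST genes higher (9.13% over all genes) and 2 lower (5.44%), 7 in all (14.6%), and AD + Yip7∆S had 6 higher (10.9%) and 3 lower (7.94%), 9 in all (18.9%). GstD1, GstD5, GstD6, GstE1 and GstE5 were higher and GstE9 lower in both. GstE1 was 1.52 ± 0.12 above Control in AD + Yip7 (edgeR adjusted p = 4.7e-06) and 1.61 ± 0.12 in AD + Yip7∆S (2.1e-06). GstD5 was 2.58 ± 0.49 and 2.96 ± 0.49 above Control (edgeR adjusted p = 0.0037 and 0.0011), and GstD6 had 10 to 17 counts and 9 to 20 counts per sample.

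GstD1 was 0.44 ± 0.12 above Control in AD + Yip7 (edgeR adjusted p = 0.032) and 0.40 ± 0.12 in AD + Yip7∆S (0.04). The first call was lost in 7 of 21 alternatives, among them leaving out any 1 replicate of Control or AD + Yip7 (0.42 to 0.45), and the second in 11 of 21, of which 10 left the value at 0.40 to 0.42, among them leaving out any 1 Control replicate. In the other one, without AD + Yip7∆S replicate 3, it was 0.26 (edgeR adjusted p = 0.14). GstE5 was 0.65 ± 0.20 and 0.79 ± 0.20 above Control (edgeR adjusted p = 0.044 and 0.013), calls that were lost in 9 and in 1 of 21 alternatives, and that of GstE9 in AD + Yip7 (−0.56 ± 0.12) was lost without AD + Yip7 replicate 2 (−0.50, edgeR adjusted p = 0.051). The count of 7 in AD + Yip7 went to 4 without Control replicate 2 or 3. It was also 4 without AD + Yip7 replicate 1 or 3, and 3 without AD + Yip7 replicate 2. GstE1 was called in each of these fits. GstD5 and GstD6 were called in each too, but they were tested through the groups where they were high, so this is not support. GstD2, at an adjusted p of 0.27 and 0.55 by edgeR, and GstD8, at 0.91 and 0.29, were not called against Control with Yip7 or with Yip7∆S.

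The other calls against Control were made in 1 of the 2 groups with a Yip7 form. GstE8 was lower in AD + Yip7, with 4.98, 3.82 and 4.68 CPM beside 6.84, 7.73 and 8.25 in Control (−0.76 ± 0.21, edgeR adjusted p = 0.027), and did not differ detectably between AD + Yip7 and AD (−0.56 ± 0.21, edgeR adjusted p = 0.24). GstS1 was higher in AD + Yip7∆S (0.57 ± 0.12, edgeR adjusted p = 0.0048). GstE4 was lower there (−1.15 ± 0.28, edgeR adjusted p = 0.013), at 20.4, 23.9 and 39.7 CPM, and GstT3, a Theta gene, was lower by a small margin, at 23.2 ± 1.53 CPM against 30.5, 30.2 and 26.0 in the Control samples (−0.32 ± 0.10, edgeR adjusted p = 0.034). The call of GstE8 was lost in 5 of 21 alternatives, without Control replicate 2 or 3 or any 1 replicate of AD + Yip7 (−0.65 to −0.84), and that of GstT3 in 9 of 21, among them both fits of 6 samples and leaving out Control replicate 1 or 2 or AD + Yip7∆S replicate 1 or 2 (−0.28 to −0.32). The call of GstE4 was lost without Control replicate 1 (−0.87, edgeR adjusted p = 0.059) or AD + Yip7∆S replicate 1 (−0.97, 0.053). For these 4 genes, the difference between the Yip7 forms was not called, with edgeR adjusted p from 0.30 to 0.74.

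Genes beside the GSTs were read from fixed lists, of glutathione supply, redox systems, regulators and the GST fold. Of 7 genes of glutathione synthesis and turnover, Cbs, the cystathionine β-synthase that leads homocysteine towards cysteine, was the 1 called in AD against Control. It had 25.0 ± 4.28 CPM in Control, with samples of 47.6, 51.4 and 46.6 in AD, 30.8, 19.8 and 33.1 in AD + Yip7, and 42.1, 52.4 and 39.9 in AD + Yip7∆S. Cbs rose by 0.96 ± 0.18 in AD (edgeR adjusted p = 0.0022) and fell by 0.80 ± 0.18 in AD + Yip7 relative to AD (0.047). Among all genes, 26% were called in the first of these comparisons and 1.81% in the second. The difference of AD + Yip7∆S from AD was −0.12 ± 0.18 (edgeR adjusted p = 0.82), and that between both Yip7 forms was not called (−0.68 ± 0.18, edgeR adjusted p = 0.23).

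Of 5 thioredoxin and glutaredoxin system genes, 1 rose in AD, the peroxidase gene PHGPx, from 153 ± 3.79 to 277 ± 45.8 CPM (0.86 ± 0.11, edgeR adjusted p = 0.00016). Against AD, 0 were called with either Yip7 form, with 1 and 0 at an unadjusted p under 0.05. Among all genes, 26% were called in AD against Control, and 1.81% and 1.85% against AD. An unadjusted p under 0.05 was found for 4064, 1387 and 1600 of 10577 genes in these comparisons. Of 6 listed regulators (cnc, Keap1, maf-S, Hr96, ss and tgo), 0 were called by edgeR in AD against Control, with 1 (Hr96) at an unadjusted p under 0.05. The log2 fold changes of their own mRNA ran from −0.23 (Hr96) to 0.31 (ss). For cnc, which encodes CncC, the value was −0.19, for Keap1 −0.09 and for maf-S −0.08.

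Of 7 genes with a GST fold outside the naming rule, eEF1gamma, a subunit of the translation elongation factor, rose in AD, from 1137 ± 56.8 to 1619 ± 83.6 CPM (0.51 ± 0.10, edgeR adjusted p = 0.0032). The eye pigment gene se (sepia), an Omega class gene by sequence next to GstO2, had 65.7, 56.6 and 62.8 CPM in AD, 38.1, 37.7 and 37.9 in AD + Yip7, and 36.4, 30.2 and 45.8 in AD + Yip7∆S. It fell by 0.70 ± 0.15 (edgeR adjusted p = 0.041) and by 0.72 ± 0.15 (0.036) relative to AD, while GstO1, GstO2 and GstO3 differed from AD by −0.23 to 0.09 and were not called. Its exons share 61 bases with those of GstO2. Gdap1, the fly relative of a human peripheral neuropathy gene, rose in AD + Yip7 relative to AD, from 6.65 ± 0.811 to 11.4 ± 0.883 CPM (0.78 ± 0.14, edgeR adjusted p = 0.015). In AD + Yip7∆S, Gdap1 had 9.16, 9.83 and 8.27 CPM, above every AD sample, and was not called against AD (0.45 ± 0.14, edgeR adjusted p = 0.15). The difference of Gdap1 between both Yip7 forms was not called (0.33 ± 0.14, edgeR adjusted p = 0.46).

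The other enzyme families of detoxification were read by symbol. Of 85 cytochrome P450 genes 79 were tested, and relative to Control 15 of them were higher and 13 lower in AD (median log2 fold change 0.04). Among all tested genes, 14.4% were called higher and 11.6% lower in this comparison. Against AD, 3 P450 genes were higher and 0 lower in AD + Yip7 (1.81% of all genes called). In AD + Yip7∆S, 3 were higher and 1 lower (1.85% of all genes called). Of 35 UDP-glycosyltransferase genes 25 were tested, with 2 higher and 1 lower in AD than in Control. Against AD, edgeR called 0 of them with Yip7 or with Yip7∆S, where 3 and 8 had an unadjusted p under 0.05. Of all 10577 genes, 1387 and 1600 had such a p.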

How the data were processed

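RNA-seq of fly heads was deposited by the authors as raw counts per gene for 12 samples (14162 genes). The submitters' notes name HISAT2 2.1.0, StringTie 1.3.1, DESeq2 1.36.0 and build dm6, and the study's methods name fastp and HTSeq-count. The annotation and strand setting are not given in the sources used here. Samples were grouped by genotype label. Counts were fitted with edgeR 4.0.16 (R 4.3.3, limma 3.58.1), all 12 samples in 1 quasi-likelihood model with filterByExpr and TMM, without replicate numbers, and p-values were adjusted over the 10577 genes kept. The 6 contrasts between groups were taken. Intervals of count ratios are exact. GST genes were described in full when called in at least 1 contrast (14 genes), with the highest gene of each class. Genes of the lists (glutathione, thioredoxin, CncC and Keap1, GST fold) were named when called in a contrast with AD or between Yip7 forms. Members and lists were chosen with earlier results of these data known. Coordinates are from Ensembl BDGP6.54. DESeq2 1.42.0, other scalings, filters, a replicate block and leaving out samples were tried as alternatives, and the fit was tested on simulated data. No 2 samples of 1 group agreed within counting noise. The labels call replicates separate samples, and the study's methods call them biological triplicates.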

Additional observations from a re-analysis of the deposited data

How the results depend on the processing

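None of the 28 calls of single GST genes changed direction in any of the 21 alternatives, and 18 were kept in every alternative that tested the gene. The 18 include all calls of GstD5 and GstD6, which were tested through the groups where they were high, so that their calls were kept is not support. These calls were tested in 20 alternatives, and that of GstD6 in AD + Yip7∆S against Control in 19. For AD + Yip7 against AD, where the main count was 0, DESeq2 gave 5 GST genes with 12 samples and 4 with 6 samples, and 1 was called by edgeR with 6 samples (GstD2) and 1 without the count filter (GstD2). Leaving out 1 replicate gave 0 to 2, and leaving out AD replicate 3 and AD + Yip7∆S replicate 3 together gave 2. For AD + Yip7∆S against AD, where it was 1, DESeq2 with 12 samples gave 2, edgeR with 6 samples gave 0, the 2 samples left out together gave 2, and leaving out 1 replicate gave 0 to 1, which was GstE9 without AD replicate 3 and otherwise GstD2. Leaving out 1 replicate gave 10 to 13 in AD, 3 to 7 in AD + Yip7 and 6 to 10 in AD + Yip7∆S against Control, and 0 between the Yip7 forms. Without AD replicate 3 and AD + Yip7∆S replicate 3 together, 7 GST genes were higher and 2 lower in AD + Yip7 than in Control. In AD + Yip7∆S, 6 were then higher and 5 lower than in Control (median log2 fold change −0.08 in place of 0.06). Between the Yip7 forms 0 were called without both samples. The cause of these differences was not tested. With upper quartile scaling, the calls over all genes in AD + Yip7 against AD were 71 higher and 115 lower in place of 100 and 91, and in AD + Yip7∆S against AD 68 and 143 in place of 92 and 104. A minimum of 10 counts in every sample removes GstD5 and GstD6 by its construction.

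The correlations of the deviations of same-numbered samples ran from −0.39 to 0.29, and 5 of 18 were over 0.1, so the numbers were not taken to pair the samples. The 9 pairs with Control ran from −0.39 to 0.057, and 8 of the 9 pairs among the groups with Aβ42 were above 0, the 5 over 0.1 included. A replicate block gave 12, 0, 2, 0, 7 and 8 calls for AD against Control, AD + Yip7 and AD + Yip7∆S against AD, the Yip7 forms, and AD + Yip7 and AD + Yip7∆S against Control, where the fit without it gave 11, 0, 1, 0, 7 and 9. With the block GstZ1 in AD and GstE9 in AD + Yip7∆S against AD were added, and GstT3 was lost (−0.32, edgeR adjusted p = 0.05). Depth limits GstD4, GstD5, GstD6, GstD7 and GstE10, whose folds rest on few counts.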
